A study of Homo sapiens with 6 samples.

Results

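A set of 10 genes for acute-phase plasma proteins and inter-alpha-trypsin inhibitor heavy chains, was chosen by symbol, 10 of the 26475 genes in the deposited table. They are HP, HPX, ORM1, ORM2, SAA1, SAA4, A2M, ITIH2, ITIH3 and ITIH4. Expression was measured by RNA sequencing in HepG2, a human liver cancer line that keeps much of the secretory activity of hepatocytes. In 3 libraries HepG2 cells expressed TAF2, one of the TBP-associated subunits of TFIID, the factor that binds core promoters, and in the other 3 they expressed the reporter protein eGFP. The labels name no cytokine treatment, and for the vector, its promoter and whether a line was 1 clone nothing is stated in the labels. The labels also do not say whether replicate libraries stem from different cultures, so every p-value measures spread among libraries that may be purely technical.

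The acute-phase response is the change in plasma protein output that the liver makes in inflammation. Interleukin-6, acting through STAT3, and interleukin-1, acting through NF-kB and C/EBP factors, raise the transcription of one set of secreted proteins in hepatocytes, while another set, led by albumin, falls. Haptoglobin and hemopexin clear free hemoglobin and heme, the orosomucoids bind drugs and lipids, the serum amyloid A proteins travel on high-density lipoprotein, and alpha-2-macroglobulin traps proteases. The inter-alpha-trypsin inhibitor heavy chains are passed from a proteoglycan complex with the light chain bikunin to hyaluronan in the matrix.

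Log2 ratios, that is log2 fold changes, are TAF2 over eGFP and come from the edgeR fit, as do SE and adjusted p. Libraries held between 22276308 and 28024004 expected counts. TAF2 itself had 50.1, 48.3 and 47.4 CPM (counts scaled to a common library size) in TAF2 libraries, against 35.8, 40.4 and 37.5 CPM in eGFP libraries. The groups did not overlap, with a log2 ratio of 0.36 (SE 0.046, edgeR adjusted p = 1.44e-08). All 10 hepatocyte markers checked were detected, and their summed level was 42000 to 43700 CPM in TAF2 and 52800 to 54200 CPM in eGFP libraries, with 9 of the 10 called lower and 1 called higher with TAF2. All but AFP and APOB also belong to the acute-phase and plasma protein lists given later, so those results share genes with this one. Of 7 fibroblast and stellate markers 2 reached a mean of 1 CPM, COL1A1 and PDGFRB, both called higher; the list summed to 20.4 to 21.8 CPM in TAF2 and 8.14 to 9.22 CPM in eGFP libraries, and DCN, LUM and THY1 were listed at 0. Of 7 macrophage markers 2 reached that level, CD14 and LYZ; the list summed to 2240 to 2290 CPM in TAF2 and 1890 to 2010 CPM in eGFP libraries, nearly all of it LYZ, which was called higher while CD14 was called lower, with PTPRC, CD163 and MARCO listed at 0. Endothelial markers summed to 0.549 to 0.714 CPM in TAF2 and 0.295 to 1.08 CPM in eGFP libraries, and 5 bile duct markers to 577 to 586 CPM in TAF2 and 547 to 558 CPM in eGFP libraries, where of the 3 tested (KRT19, SOX9 and EPCAM) 2 were called lower and 1 higher. Among all tested genes 22.4% were called lower and 20.6% higher. The part of these markers in the results was not tested, and in bulk RNA fewer cells of a kind and less RNA per cell cannot be told apart.

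The set divided: the protease inhibitor A2M, constitutive SAA4, haptoglobin and the heavy chain ITIH3 were lower with TAF2, and the heavy chain ITIH2 was slightly higher. SAA4 fell by 35.5%, A2M fell by 31.55%, HP fell by 26.8% and ITIH3 fell by 23.9%, while ITIH2 and ORM1 rose by 5.78% and 5.49%. ORM2, HPX and ITIH4 were tested and did not pass the threshold of 0.05 on the adjusted p, and SAA1, listed at 0 in every library, could not be tested. Thus 4 of 9 tested genes were called lower and 2 called higher, a share of 66.7%, where 43.0% of all 12902 tested genes were called, 22.4% lower and 20.6% higher. In 4 of the 9 genes every TAF2 library lay below every eGFP library and in 2 every TAF2 library lay above, so that groups were apart in 6 of 9, beside 50.6% of all tested genes (26.1% lower and 24.5% higher). The median log2 ratio of the 9 was -0.08 and that of all tested genes -0.00275. The median absolute change was 0.34 for the 9 and 0.13 for all tested genes. The value 0.34 is that of ITIH4, which had 7 to 13 counts a library (SE 0.40, edgeR adjusted p = 0.528). The contrast with 0.13 therefore rests on an imprecise value. When edgeR tested against a change of more than 1.5-fold, 0 of the 9 were called (1 at an unadjusted p under 0.05), beside 2.89% of all tested genes.

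**Figure D1:**
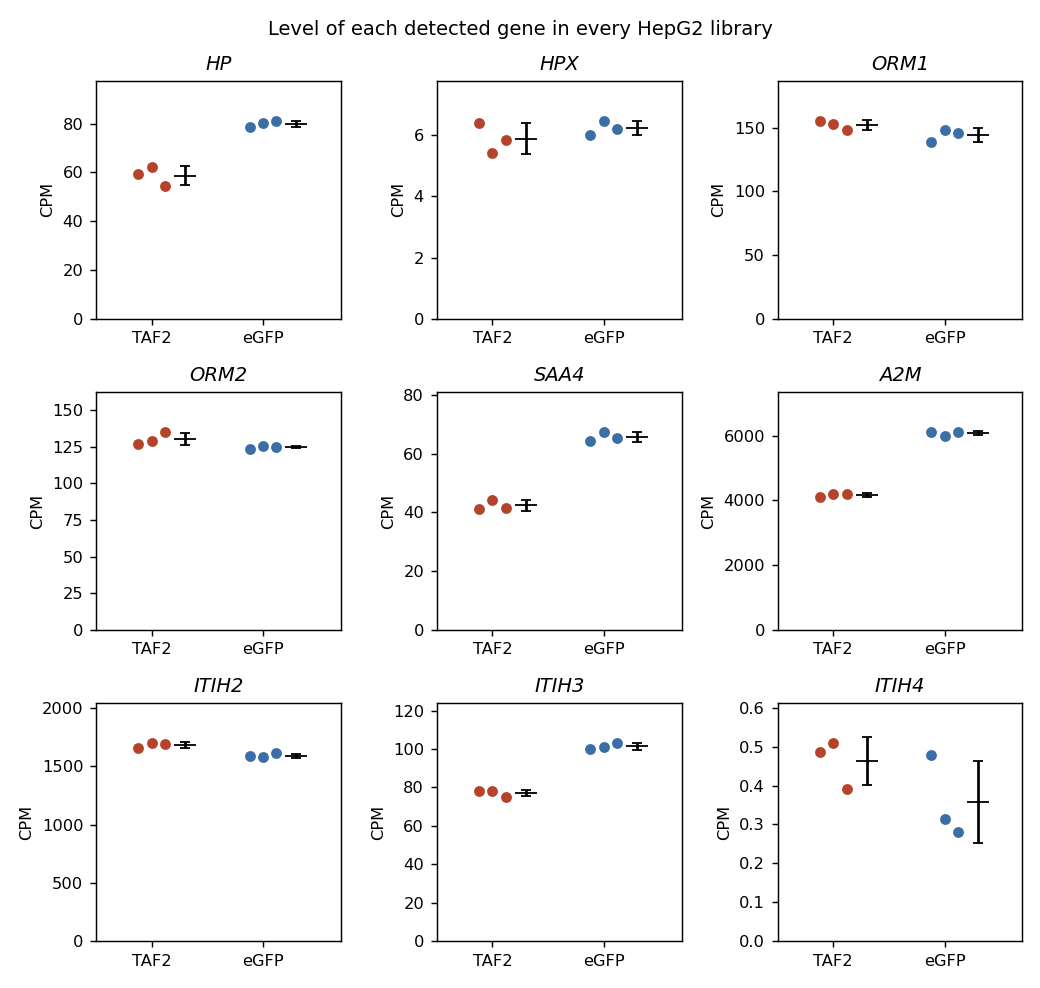
CPM (linear axes from 0) of the 9 genes with reads, in the 3 TAF2 and the 3 eGFP libraries; points are libraries, and the bar beside them is the mean with its SD (n = 3). TAF2 libraries lie below all eGFP libraries for HP, SAA4, A2M and ITIH3 and above them for ORM2 and ITIH2.

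**Figure D2:**
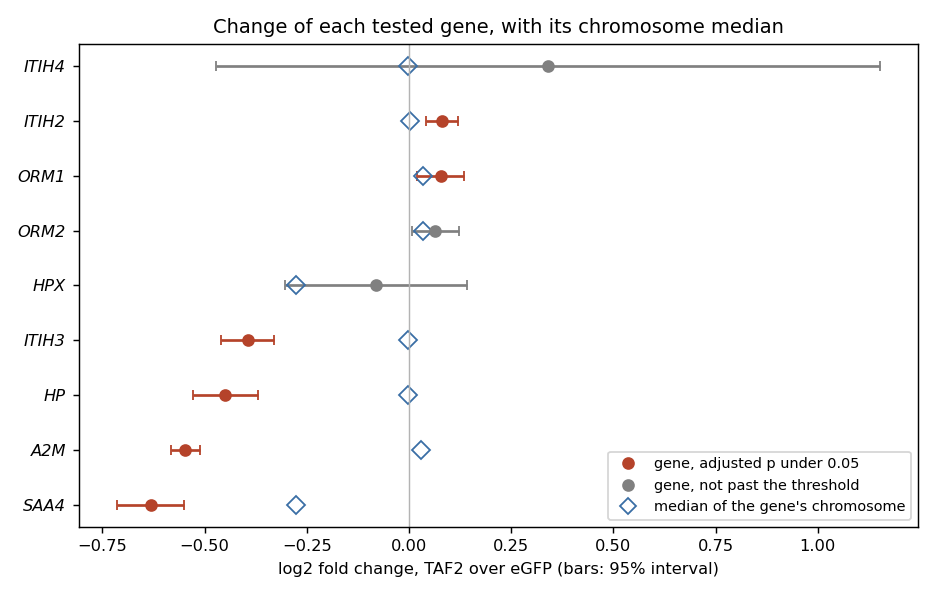
Log2 ratio, TAF2 over eGFP, of the 9 tested genes from the edgeR fit with 95% intervals built from the SE, and the median log2 ratio of the other tested genes on the same chromosome as open diamonds. SAA4 has the lowest value at -0.63; HPX and SAA4 share a chromosome whose median is -0.28.

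Haptoglobin, HP, is the plasma scavenger of free hemoglobin (chromosome 16, 72054505 to 72061055, plus strand, GRCh38.p14). It had 59.4, 62.1 and 54.4 CPM in TAF2 libraries, against 78.7, 80.1 and 81.2 CPM in eGFP libraries. The highest TAF2 library lay well below the lowest eGFP library. The means were 58.6 ± 3.90 CPM in TAF2 and 80.0 ± 1.25 CPM in eGFP libraries (SD, n = 3 each), a log2 ratio of -0.45 (SE 0.039, 95% interval -0.53 to -0.37, edgeR adjusted p = 2.49e-12). HP has a close neighbour and paralog, HPR, a haptoglobin-related protein carried on lipoprotein, and of the 75-base windows in the HP transcripts of GENCODE 29, 23.5% also occur in HPR. RSEM therefore divided some reads between them. HPR was lower as well, at 11.7 ± 0.434 CPM in TAF2 and 19.1 ± 1.19 CPM in eGFP libraries (SD, n = 3 each; log2 ratio -0.70, edgeR adjusted p = 7.12e-11). With both genes summed the level was 70.4 ± 3.58 CPM in TAF2 and 99.1 ± 2.00 CPM in eGFP libraries (SD, n = 3 each), a log2 ratio of -0.49 (edgeR adjusted p = 2.52e-15); this total is unaffected by how reads were split between them. The HP share of that sum was 83.3% ± 1.38 in TAF2 and 80.8% ± 0.902 in eGFP libraries (SD, n = 3 each; exact two-sided permutation p = 0.2, with 0.1 the smallest possible). TXNL4B is annotated across HP on the opposite strand in GENCODE 29, while its RefSeq span begins at 72084857, beyond HP. It had 472, 439 and 528 counts in TAF2 and 509, 433 and 502 counts in eGFP libraries. Its change did not pass the threshold (edgeR adjusted p = 0.333).

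Hemopexin, HPX, binds free heme and carries it to the liver (chromosome 11, 6431049 to 6440987, minus strand). It was expressed weakly, at 6.40, 5.42 and 5.85 CPM in TAF2 libraries, against 6.01, 6.48 and 6.21 CPM in eGFP libraries. The groups overlapped. The log2 ratio was -0.08 (SE 0.11, edgeR adjusted p = 0.594), and its 95% interval, -0.30 to 0.14, covers a fall to 0.811 and a rise to 1.10 times the eGFP level, so this depth does not show whether HPX moved. Downstream of both scavengers, HMOX1, the inducible heme oxygenase, rose to 50.8 ± 0.952 CPM in TAF2 libraries, against 42.05 ± 0.963 CPM in eGFP libraries (SD, n = 3 each; log2 ratio 0.27, edgeR adjusted p = 8.91e-07). BLVRB, a biliverdin reductase, fell to 14.2 ± 0.803 CPM in TAF2 libraries, against 16.7 ± 0.623 CPM in eGFP libraries (SD, n = 3 each; log2 ratio -0.23, edgeR adjusted p = 0.00736). CD163, the macrophage receptor for the haptoglobin-hemoglobin complex, was listed at 0.

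The orosomucoid genes ORM1 and ORM2 encode alpha-1-acid glycoprotein and lie side by side on chromosome 9 (114323098 to 114326479 and 114329869 to 114333251, both plus strand). ORM1 had 156, 153 and 148 CPM in TAF2 libraries, against 138, 148 and 146 CPM in eGFP libraries. The lowest TAF2 library, at 147.88 CPM, fell just under the highest eGFP library, at 148.38 CPM. The rise was small, with a log2 ratio of 0.077 (SE 0.028, edgeR adjusted p = 0.0259). The call was lost with the DESeq2 Wald test (adjusted p = 0.0846), with scaling factors computed without genes of chromosomes 4 and 11 (0.0818), and without TAF2 replicate 1 (0.0779), TAF2 replicate 2 (0.0763) or eGFP replicate 1 (0.205); over the alternatives other than the 1.5-fold test its adjusted p ran between 0.0053 and 0.205. ORM2 had 127, 129 and 135 CPM in TAF2 libraries, against 124, 125 and 125 CPM in eGFP libraries, with no overlap, and its log2 ratio of 0.064 did not pass the threshold (SE 0.029, edgeR adjusted p = 0.0672).

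Reads of the orosomucoid pair cannot be fully told apart: 39.4% of the 75-base windows of ORM1 occur in ORM2 and 41.8% of those of ORM2 in ORM1. Summed, the pair had 282.5 ± 0.472 CPM in TAF2 and 269 ± 6.08 CPM in eGFP libraries (SD, n = 3 each; log2 ratio 0.071, SE 0.024, edgeR adjusted p = 0.0133). ORM1 held 53.9% ± 1.48 of that sum in TAF2 and 53.6% ± 0.725 in eGFP libraries (SD, n = 3 each; exact two-sided permutation p = 0.8, with 0.1 the smallest possible). The total of the pair does not depend on that division. The RefSeq span of AKNA begins inside ORM2, at 114330504, an overlap not listed in GENCODE 29. AKNA was called lower (log2 ratio -0.27, edgeR adjusted p = 0.00222).

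Serum amyloid A1, SAA1, is the strongly inducible form of the family and is known for its steep rise in plasma in inflammation (chromosome 11, 18266264 to 18269967, plus strand). It was listed at 0 in all 6 libraries, where a count of 0 allows up to 3 counts, or 0.107 to 0.135 CPM, counting error alone considered. SAA2, its inducible paralog, had 1, 0 and 1 counts in TAF2 and 2, 2 and 0 counts in eGFP libraries. CRP, the other classical inducible marker, had 0, 1 and 0 counts in TAF2 and 0 counts in each eGFP library.

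SAA4, the constitutively made member of the family (chromosome 11, 18231355 to 18236802, minus strand), was well expressed by comparison. It had 41.1, 44.3 and 41.6 CPM in TAF2 libraries, against 64.1, 67.4 and 65.4 CPM in eGFP libraries. Every TAF2 library lay below every eGFP library. The means were 42.3 ± 1.72 CPM in TAF2 and 65.7 ± 1.66 CPM in eGFP libraries (SD, n = 3 each), a log2 ratio of -0.63 (SE 0.041, 95% interval -0.71 to -0.55, edgeR adjusted p = 1.04e-16), the lowest of the 9 tested genes. The read-through transcript SAA2-SAA4, which overlaps SAA4 on the same strand, was listed at 0.

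Alpha-2-macroglobulin, A2M, is a broad protease inhibitor of plasma and also binds cytokines (chromosome 12, 9067708 to 9116229, minus strand). It responds strongly to inflammation in rats and only mildly in humans. A2M had 4088.5, 4186 and 4199 CPM in TAF2 libraries, against 6119, 6000.2 and 6104.5 CPM in eGFP libraries. The replicates of a group lay close together and the groups were far apart. The means were 4158 ± 60.6 CPM in TAF2 and 6075 ± 64.8 CPM in eGFP libraries (SD, n = 3 each), a log2 ratio of -0.55 (SE 0.018, 95% interval -0.58 to -0.51, edgeR adjusted p = 7.34e-27). By p-value this was the 23rd of the 12902 tested genes, although 950 called genes changed by more.

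A2M alone made up 65.8% to 66.1% of the counts of the 10 genes in TAF2 and 74.0% to 74.5% in eGFP libraries. The 10 genes together took 0.622% to 0.638% of all counts in TAF2 and 0.809% to 0.822% in eGFP libraries, so that the total of the set largely followed A2M. A2M-AS1, on the opposite strand, had 6, 6 and 7 counts in TAF2 and 8, 4 and 8 counts in eGFP libraries. Of 15 listed paralogs and receptors of the set 9 were tested, with a median log2 ratio of 0.040. Of these 3 were called higher and 3 lower, beside 20.6% and 22.4% of all tested genes. PZP, the closely related pregnancy zone protein, had at most 2 counts in a library. LRP1, the receptor that clears protease-bound A2M and heme-bound hemopexin, was a little higher at 838 ± 8.81 CPM in TAF2 and 805 ± 2.14 CPM in eGFP libraries (SD, n = 3 each; log2 ratio 0.058, edgeR adjusted p = 0.0175), and CD109, a membrane-anchored relative of A2M, rose by 0.44 (edgeR adjusted p = 5.03e-06). LRP1 was named after its values were seen. Over the 6 libraries, the genes of at least 5 CPM whose log2 CPM followed A2M most closely were MPV17L (Pearson r = 0.99987), PEBP1 (0.99979) and PLEKHB1 (0.99963). The points share the separation of the groups, and 285 of 10341 genes compared exceeded 0.99.

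The heavy chains of inter-alpha-trypsin inhibitor moved in different directions. ITIH2, one of the heavy chains joined to bikunin in the plasma complex (chromosome 10, 7703316 to 7749520, plus strand), had 1656, 1702 and 1695 CPM in TAF2 libraries, against 1585, 1579 and 1613 CPM in eGFP libraries. All TAF2 libraries were above all eGFP libraries, by a narrow margin. The log2 ratio was 0.081 (SE 0.019, 95% interval 0.042 to 0.12, edgeR adjusted p = 0.000618), and the call was kept in all alternatives except the 1.5-fold test.

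ITIH3, the heavy chain of pre-alpha-inhibitor (chromosome 3, 52794796 to 52808797, plus strand), had 78.1, 78.1 and 75.1 CPM in TAF2 libraries, against 99.9, 101 and 103 CPM in eGFP libraries. The groups did not overlap. The log2 ratio was -0.39 (SE 0.032, 95% interval -0.46 to -0.33, edgeR adjusted p = 1.48e-13), and the 95% intervals of ITIH2 and ITIH3 lie on opposite sides of 0. ITIH4, an interleukin-6-inducible member that does not join bikunin (chromosome 3, 52812962 to 52830672, minus strand), had 12, 13 and 11 counts in TAF2 and 13, 7 and 7 counts in eGFP libraries. Its groups overlapped, and with a log2 ratio of 0.34, a 95% interval of -0.47 to 1.15 and an edgeR adjusted p of 0.528 no difference was detectable at this depth. ITIH4 made up 0.596% ± 0.0673 of the counts of ITIH3 and ITIH4 in TAF2 and 0.353% ± 0.109 in eGFP libraries (SD, n = 3 each; exact two-sided permutation p = 0.1, the smallest possible). Nearly all of that sum is ITIH3, which was itself lower, and ITIH4 had only 7 to 13 counts a library. The share therefore does not show a change of ITIH4 by itself.

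Among the partners of the heavy chains, the light chain gene AMBP, which also encodes alpha-1-microglobulin, had 988, 993 and 1006 CPM in TAF2 libraries, against 1063, 999 and 1016 CPM in eGFP libraries (log2 ratio -0.043, edgeR adjusted p = 0.101; named after its values were seen). Of 12 listed partners 6 were tested, and 1 was called higher and 1 lower, beside 20.6% and 22.4% of all tested genes. VCAN, the hyaluronan-binding proteoglycan versican, rose to 15.2 ± 0.815 CPM in TAF2 libraries, against 2.28 ± 0.184 CPM in eGFP libraries (SD, n = 3 each; edgeR adjusted p = 1.14e-23). ITIH1, a heavy chain gene beside ITIH3, was called lower at 0.898 ± 0.101 CPM in TAF2 and 1.37 ± 0.148 CPM in eGFP libraries (SD, n = 3 each; log2 ratio -0.61, edgeR adjusted p = 0.0441). The number of partners called was 1 under the DESeq2 Wald test, with no filter on low counts, with the replicate block, without TAF2 replicate 3 and without eGFP replicate 1, and 4 with scaling without chromosomes 4 and 11. TNFAIP6, the enzyme that moves heavy chains onto hyaluronan, and the hyaluronan synthases HAS1 and HAS2 were listed at 0 in all 6 libraries.

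Per kilobase of transcript the 9 genes with reads kept the same order in both groups. A2M was highest at 858 ± 12.5 CPM per kb in TAF2 and 1254 ± 13.4 CPM per kb in eGFP libraries, rank 42 of 12654 genes with a length by the mean of both groups (SD, n = 3 each). ITIH2 followed at 527.5 ± 7.72 CPM per kb in TAF2 and 499 ± 5.67 CPM per kb in eGFP libraries, then ORM1 at 190 ± 4.92 CPM per kb in TAF2 and 180.0 ± 6.49 CPM per kb in eGFP libraries, and ORM2 at 171 ± 5.76 CPM per kb in TAF2 and 164 ± 1.16 CPM per kb in eGFP libraries. ORM1 and ORM2 were the closest pair, and their values did not overlap within a group, though both depend on the division of shared reads. SAA4 stood at 58.2 ± 2.37 CPM per kb in TAF2 and 90.3 ± 2.29 CPM per kb in eGFP libraries, HP at 43.5 ± 2.89 CPM per kb in TAF2 and 59.4 ± 0.926 CPM per kb in eGFP libraries, and ITIH3 at 25.6 ± 0.581 CPM per kb in TAF2 and 33.7 ± 0.551 CPM per kb in eGFP libraries. HPX, at 3.57 ± 0.300 CPM per kb in TAF2 and 3.77 ± 0.142 CPM per kb in eGFP libraries, and ITIH4, at 0.149 ± 0.0200 CPM per kb in TAF2 and 0.115 ± 0.0342 CPM per kb in eGFP libraries, closed the order (SD, n = 3 each).

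The position of the genes was examined because genes of chromosome 11 were mostly lower. On chromosome 11, which holds HPX, SAA1 and SAA4, the other 723 tested genes had a median log2 ratio of -0.28, with 536 called lower and 21 higher. SAA4 lay below that median and below all 10 of its nearest tested neighbours, whose own median was -0.36 with a range of -0.43 to 0.059. LDHA, HPS5 and GTF2H1 are among those neighbours and were called lower (named after their values were seen). Of the other tested genes of chromosome 11, 10.4% had a lower log2 ratio than SAA4. HPX, in contrast, lay above the chromosome median, which its 95% interval includes, and above 8 of its 10 neighbours (median -0.21). What the shift of chromosome 11 contributed to the SAA4 value was not tested.

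The other called genes lie on chromosomes whose medians were within 0.0336 of 0. The 10 neighbours of A2M had a median of 0.059, and A2M lay below all 10; chromosome 12 had a median of 0.028, and 4.22% of its other 663 tested genes were lower than A2M. HP lay below the median of its neighbours, -0.064, and of its chromosome, -0.0034, with HPR and PMFBP1 (-0.49, edgeR adjusted p = 0.0756) lower than HP itself. ITIH3 lay below 9 of its 10 neighbours (median 0.022), ITIH1 being the exception, while ITIH2 was near the median of its own neighbours (0.10 beside 0.081 for ITIH2). The orosomucoid pair was close to its neighbours too, which had a median of 0.086.

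**Figure D3:**
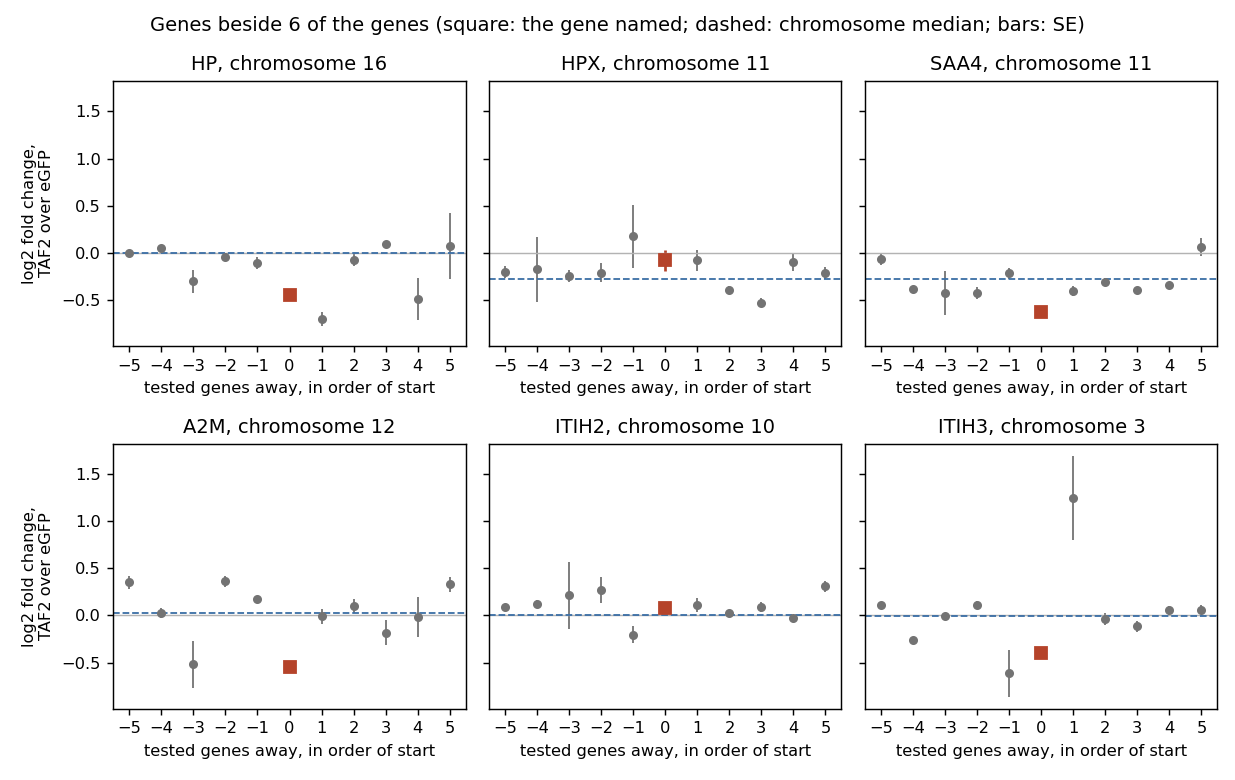
Log2 ratio, TAF2 over eGFP, of HP, HPX, SAA4, A2M, ITIH2 and ITIH3 (squares) and of the 5 nearest tested genes on each side in order of start (points), with SE bars; the dashed line is the median of the other tested genes on that chromosome. A2M lies below its 10 neighbours around a chromosome median of 0.028, and SAA4 below its 10 neighbours around a median of -0.28.

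Promoter sequence was available for 5 of the 10 genes, as RefSeq windows on GRCh38.p14 from 250 bases before to 50 after the start. They were examined because members of the set moved differently, with SAA4 and ITIH3 lower, ORM1 slightly higher, and HPX and ITIH4 not past the threshold. The ITIH3 window is described but not printed. Both strands were searched for the C/EBP pattern TTNNGNAA, the STAT pattern TTCNNNGAA, the interleukin-6 element CTGGGAA and an NF-kB pattern (GGG, any 2 bases, TTTCC), and for an HNF1 pattern, and matches are in capitals. The windows are chr11:18236753-18237052, minus strand for SAA4, chr9:114322848-114323147, plus strand for ORM1, chr11:6440938-6441237, minus strand for HPX and chr3:52830623-52830922, minus strand for ITIH4, each written 5′ to 3′ along its gene.
SAA4: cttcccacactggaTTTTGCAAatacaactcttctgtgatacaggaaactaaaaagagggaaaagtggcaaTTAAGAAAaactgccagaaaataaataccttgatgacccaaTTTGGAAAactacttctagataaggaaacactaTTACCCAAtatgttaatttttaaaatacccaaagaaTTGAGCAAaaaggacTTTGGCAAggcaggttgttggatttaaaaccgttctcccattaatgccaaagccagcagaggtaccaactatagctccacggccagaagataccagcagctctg
ORM1: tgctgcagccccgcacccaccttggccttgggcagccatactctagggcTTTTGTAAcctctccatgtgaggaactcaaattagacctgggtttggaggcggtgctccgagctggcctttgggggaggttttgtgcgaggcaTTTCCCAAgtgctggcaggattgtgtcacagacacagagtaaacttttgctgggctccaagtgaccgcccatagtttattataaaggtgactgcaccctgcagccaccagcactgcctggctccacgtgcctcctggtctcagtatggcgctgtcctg
HPX: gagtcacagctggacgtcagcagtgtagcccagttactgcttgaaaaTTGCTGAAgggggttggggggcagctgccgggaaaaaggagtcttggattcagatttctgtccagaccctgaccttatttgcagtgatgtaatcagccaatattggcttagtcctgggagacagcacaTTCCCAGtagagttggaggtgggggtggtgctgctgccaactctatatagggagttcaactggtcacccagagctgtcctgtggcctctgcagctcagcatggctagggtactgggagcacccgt
ITIH4: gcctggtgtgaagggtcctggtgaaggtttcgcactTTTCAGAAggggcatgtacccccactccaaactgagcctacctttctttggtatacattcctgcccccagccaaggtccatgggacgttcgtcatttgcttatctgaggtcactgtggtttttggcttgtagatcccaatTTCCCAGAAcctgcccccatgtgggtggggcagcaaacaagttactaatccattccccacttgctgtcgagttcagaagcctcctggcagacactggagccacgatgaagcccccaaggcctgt
The SAA4 window holds 6 matches to the C/EBP pattern, ORM1 holds 2, and HPX and ITIH4 hold 1 each. At least 1 match occurs in 36.8% of all 35116 promoter windows and at least 6 in 0.071% of them. The cutoff of 6 was taken from the SAA4 window itself, which held the most matches in the set. The SAA4 window is also poor in G and C, at 38.7%. The STAT pattern occurs in ITIH4, at -74 from the start, where it overlaps an interleukin-6 element, and in 7.66% of all windows. The interleukin-6 element occurs in HPX, at -75, and in 10.8% of all windows. The NF-kB pattern, found in 1.91% of all windows, and the HNF1 pattern, in 0.006%, matched none of these. The window of ITIH3 (chr3:52794546-52794845, plus strand), which like SAA4 was called lower, held no match to any pattern. Whether matches go with the direction of change was not tested. A match describes letters only, and no binding was measured.

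The secreted proteins usually described as rising in inflammation were mostly lower in TAF2 cells, as were those described as falling. Among 18 tested of 23 further positive acute-phase genes, 11 were called lower and 4 higher, beside 22.4% and 20.6% of all tested genes. The median log2 ratio of the 18 was -0.32, beside -0.00275 for all tested genes. Complement C3 fell by 0.50 on the log2 scale (edgeR adjusted p = 1.24e-24) and complement factor B, CFB, fell by 0.51 (edgeR adjusted p = 6.32e-19). C4B fell by 0.75 (edgeR adjusted p = 4.86e-20) but shares reads with its near-identical copy C4A, which did not pass the threshold at 0.13 (edgeR adjusted p = 0.763), so its own value is uncertain.

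Of 15 listed plasma proteins that fall in inflammation, 13 were tested, with a median log2 ratio of -0.47. Among these 10 were called lower and 1 higher, beside 22.4% and 20.6% of all tested genes. Albumin, ALB, had -0.62 and APOA1 of high-density lipoprotein -0.82, while transferrin, TF, the iron carrier, had -0.47 and the phospholipid-binding APOH -0.62. APOA1 lies on chromosome 11, where the median was -0.28, and what that shift contributed to its value was not tested. ALB lies on chromosome 4, which with chromosome 11 was left out of an alternative scaling. No median of chromosome 4 is given here, and what position contributed to the ALB value was not tested. ALB stood at 5069 ± 69.5 CPM in TAF2 and 7766 ± 36.1 CPM in eGFP libraries (SD, n = 3 each). The falls of A2M, SAA4, HP and ITIH3, between -0.63 and -0.39, lay within the range of this list, -0.94 to 0.31. So did the values of HPX, ORM1, ORM2 and ITIH2, and the same falls lay within the range of the rising list, -1.35 to 0.64. These ranges therefore do not liken the falls to either list.

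Genes of the interleukin-6 pathway went both ways. Of 20 listed 19 were tested, with a median log2 ratio of -0.053. Of those, 7 were called lower and 5 higher, beside 22.4% and 20.6% of all tested genes. The DESeq2 Wald test called 6 of the interleukin-6 genes in all, and edgeR without eGFP replicate 3 called 7. STAT3, the main transducer of the signal, had 139 ± 1.76 CPM in TAF2 and 162 ± 0.866 CPM in eGFP libraries (SD, n = 3 each; log2 ratio -0.21, edgeR adjusted p = 5.63e-09). LIFR, the receptor of leukemia inhibitory factor, fell by 0.40 (edgeR adjusted p = 1.34e-08), and the adaptor GAB1 by 0.50 (edgeR adjusted p = 6.42e-09). GAB1 lies on chromosome 4, and what position contributed to its value was not tested. PIM1, a kinase gene that STAT factors induce, rose to 132 ± 3.46 CPM in TAF2 libraries, against 63.4 ± 1.97 CPM in eGFP libraries (SD, n = 3 each; edgeR adjusted p = 1.25e-27). The feedback inhibitor SOCS3, another STAT3 target and named after its values were seen, was lower at 0.920 ± 0.0653 CPM in TAF2 and 1.48 ± 0.0346 CPM in eGFP libraries (SD, n = 3 each; edgeR adjusted p = 0.0201). The receptor chains IL6R (edgeR adjusted p = 0.282) and IL6ST (edgeR adjusted p = 0.137) did not pass the threshold.

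In the interleukin-1, TNF and NF-kB list the 19 tested genes had a median log2 ratio of -0.13. Called lower were 9 and higher 3, beside 22.4% and 20.6% of all tested genes. NFKBIZ, an inducible co-regulator of NF-kB, fell by 0.72 (edgeR adjusted p = 9.03e-14) and the receptor accessory chain IL1RAP by 0.33 (edgeR adjusted p = 2.83e-06). The subunit genes NFKB1 (-0.27, edgeR adjusted p = 9.63e-08) and RELA (-0.24, edgeR adjusted p = 1.01e-07) lie on chromosomes 4 and 11, and the median of chromosome 11 was -0.28. The cytokine gene IL6 was listed at 0 in all 6 libraries, and TNF was listed at 0 in all but eGFP replicate 3.

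Transcription factors that act on acute-phase promoters also divided, and their median log2 ratio was -0.069. They had 8 of 19 called lower and 5 higher, beside 22.4% and 20.6% of all tested genes. The largest absolute change was that of NR5A2, a nuclear receptor, at 3.95 ± 0.353 CPM in TAF2 and 19.8 ± 1.04 CPM in eGFP libraries (SD, n = 3 each; log2 ratio -2.33). CREB3L3, a membrane-bound factor of hepatocytes that induces acute-phase genes in mice, fell to 7.07 ± 0.763 CPM in TAF2 libraries, against 17.5 ± 0.696 CPM in eGFP libraries (SD, n = 3 each; edgeR adjusted p = 1.09e-16). PPARA, a nuclear receptor of fatty acid metabolism, fell by 0.47 (edgeR adjusted p = 8.94e-15). The C/EBP factors were named after their values were seen: CEBPB had 184 ± 3.58 CPM in TAF2 and 147 ± 3.37 CPM in eGFP libraries (log2 ratio 0.32, edgeR adjusted p = 1.39e-13), whereas CEBPD had 24.0 ± 1.33 CPM in TAF2 and 30.9 ± 2.41 CPM in eGFP libraries (log2 ratio -0.36, edgeR adjusted p = 2.07e-06; SD, n = 3 each). CEBPA was called lower (log2 ratio -0.11, edgeR adjusted p = 0.00121) and CEBPG higher (log2 ratio 0.13, edgeR adjusted p = 0.00135).

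**Figure D4:**
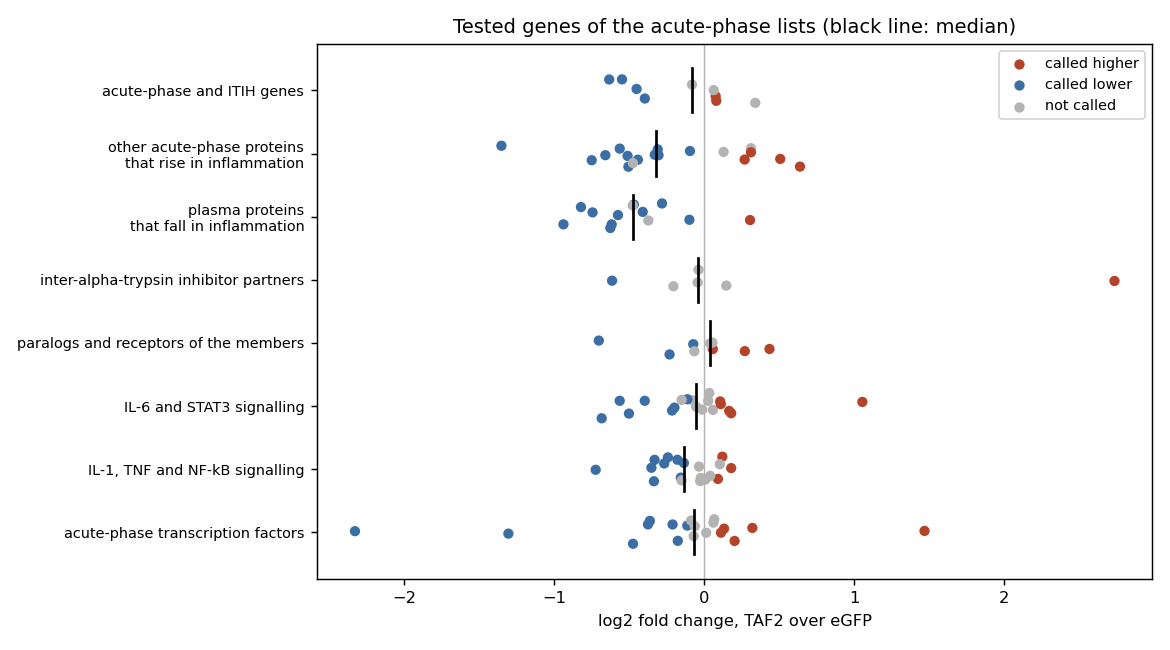
Log2 ratio, TAF2 over eGFP, of the tested genes of the acute-phase and inter-alpha-trypsin inhibitor set (top row) and of 7 related lists; each point is a gene, coloured by its call at an adjusted p of 0.05, vertical position within a row is random, and black lines are medians. The medians of the secreted protein lists are -0.32 and -0.47, and those of the signalling and transcription factor lists lie between -0.13 and -0.053.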

How the data were processed

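The deposited values are expected counts per gene, not normalized, in 1 table of 6 libraries. The submitters' processing notes list RSEM and hg38. Aligner, annotation release and strand setting: not given in the sources used here. RSEM divides reads that fit several genes, and without strand the reads of overlapping genes cannot be told apart. Per the labels' protocols, TruSeq RNA libraries were sequenced in 2 rounds on a HiSeq3000. Totals ran from 22276308 to 28024004 per library, and 0 columns were left unused.

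Expected counts were rounded, filtered with filterByExpr (12902 genes kept), scaled by TMM and compared, group alone in the model, with the quasi-likelihood test of edgeR 4.0.16 (R 4.3.3), with Benjamini-Hochberg adjustment across every gene tested. The biological coefficient of variation was 2.75%, and small changes could pass. The fit was tested on simulated data drawn from its own means and dispersions, so a misfit to the real counts could not show there. CPM use scaled library sizes. The 75-base windows and transcript lengths come from GENCODE 29, and where no accession matched (A2M), the length is that of the longest coding transcript. Coordinates come from RefSeq on GRCh38.p14. Genes were likened by log2(CPM + 0.5).

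The genes and lists were chosen with earlier results of these data known. All 10 genes were named, and in each list up to 4 called genes with the smallest p (some of these are not reported here); C4A, CRP, SOCS3, AMBP, LRP1, IL6R, IL6ST, the C/EBP factors and genes listed at 0 were named after their values were seen. Alternatives included DESeq2 1.42.0, other scalings and filters, a replicate block, leaving out each library and summing paralogs.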

Additional observations from a re-analysis of the deposited data

How the results depend on the processing

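A2M, SAA4, HP, ITIH3 and ITIH2 kept their direction and their call in every alternative but the test against 1.5-fold. That test called 0 of the 9 genes in either direction (adjusted p = 0.891 for SAA4 at -0.63, and 1 for A2M at -0.55, HP at -0.45, ITIH3 at -0.39, ITIH2 at 0.081, ORM1 at 0.077 and TAF2 at 0.36). It called 153 genes higher and 220 lower in all. It called 1 further positive acute-phase gene, 3 plasma proteins that fall, 1 heavy chain partner, 0 paralogs and receptors, 1 interleukin-6, 0 NF-kB and 3 transcription factor genes. ORM1 was not past the threshold with DESeq2 (log2 fold change 0.082), with scaling without chromosomes 4 and 11 (0.061) or without some libraries. ORM2 was past it with upper-quartile scaling (0.078, adjusted p = 0.0277), with no filter (0.074, adjusted p = 0.0344) and without TAF2 replicate 1 (adjusted p = 0.0177), in a range of 0.0177 to 0.38 without the 1.5-fold test. The number of the 9 genes called higher was 1 with DESeq2 and with scaling without chromosomes 4 and 11. That scaling also split all calls into 2291 higher and 3183 lower (41.9% higher, against 48.0% in the fit as reported). Interleukin-6 genes called numbered 6 with DESeq2; partners numbered 1 with DESeq2, with no filter and with the replicate block, and 4 with the scaling without chromosomes 4 and 11. The cause of these differences was not tested.

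Leaving out single libraries gave log2 fold changes of -0.55 to -0.53 for A2M, -0.66 to -0.61 for SAA4, -0.49 to -0.40 for HP, -0.40 to -0.37 for ITIH3, 0.076 to 0.099 for ITIH2, 0.050 to 0.10 for ORM1, 0.037 to 0.090 for ORM2, -0.14 to -0.022 for HPX and 0.19 to 0.63 for ITIH4 (neither called in any of them), and counts of 1 to 2 genes called higher, 4 lower, 7 to 11 interleukin-6 genes and 1 to 2 partners. Neighbour medians with 3 genes on each side were -0.23 for HPX, 0.037 for the orosomucoid pair, -0.40 for SAA1 and SAA4, and -0.023 for ITIH3 and ITIH4; with neighbours of at least 5 CPM they were -0.025 for HP, 0.14 for A2M and 0.057 for ITIH2. With the replicate block 2489 genes were called higher and 2761 lower, and 2 and 4 of the 9. Deviations from the group mean correlated at -0.0789, -0.104 and -0.0984 between same-numbered libraries and at 0.0207 to 0.0753 between the others. With 3 libraries per group these correlations cannot show whether same-numbered libraries share more than a number. Depth limits HPX, and ITIH4 at 7 to 13 counts a library.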

Other observations

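Some secreted proteins were higher with TAF2 although most of their lists were lower; they were picked after their values were seen. FGB, the beta chain of fibrinogen, rose by 0.64 on the log2 scale (edgeR adjusted p = 3.74e-18), while the FGA and FGG chains fell by 0.30 and 0.33. FGA, FGB and FGG all lie on chromosome 4, and what position contributed to their values was not tested. PLA2G2A, a secreted phospholipase, had 30.7 ± 1.79 CPM in TAF2 and 21.6 ± 0.861 CPM in eGFP libraries (SD, n = 3 each; log2 fold change 0.51, edgeR adjusted p = 5.77e-10). The lectin MBL2 rose by 0.31 (edgeR adjusted p = 0.000888) and complement C1S by 0.27 (edgeR adjusted p = 2.77e-05). APOA2, of high-density lipoprotein, rose by 0.31 (edgeR adjusted p = 1.72e-16), where APOA1, on chromosome 11, had -0.82. HAMP, the iron hormone hepcidin and an interleukin-6 target, had 14.5 ± 1.61 CPM in TAF2 and 22.8 ± 1.89 CPM in eGFP libraries (SD, n = 3 each; log2 fold change -0.66, edgeR adjusted p = 9.22e-09).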
